A study of Mus musculus with 12 samples.

Results

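The 10 protein-coding genes of the mouse Hoxb cluster, Hoxb1 to Hoxb9 and Hoxb13, were followed through the differentiation of embryonic stem (ES) cells in which the chromatin gene Smchd1 was floxed or deleted. They are the rows of the expression table whose name equals 1 of those 10 symbols, out of 25965 genes in all, and are described in their order along chromosome 11 from Hoxb13 to Hoxb1. The cells were C57BL/6 mouse ES cells labelled male, sampled at day 1, day 5 and day 8, and each of the 6 groups held 2 libraries, 1 from line 1 and 1 from line 3. Cells with intact Smchd1 (fl/fl) were neither transduced nor selected. Cells without it (del/del) came from the same lines, had received an MSCV retrovirus carrying Cre and a puromycin resistance gene, and were kept after puromycin, so that deletion, transduction and selection cannot be told apart in any comparison of genotypes. Each line was derived from 1 blastocyst and then split. A p-value below thus measures the spread between the 2 libraries of a group, pooled over the groups, and not a wider set of embryos. The main fit treats the libraries as independent, although the same lines recur in every group. Day 1 precedes differentiation (the protocol calls it day 0). Day 5 follows growth without LIF in Fgf2 and then a Gsk3 inhibitor, and day 8 follows the further addition of Gdf11, all groups receiving the same agents.

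Hox genes encode homeodomain transcription factors that give cells of the embryo their position along the head-to-tail axis. Within a cluster the genes are switched on in time and in space in the order in which they lie, a property called collinearity: genes at the 3-prime end, such as Hoxb1, come on early and reach far forward into the hindbrain, and genes at the 5-prime end come on later and stay further back. Wnt signalling, which a Gsk3 inhibitor mimics, and Cdx factors activate the trunk Hox genes in neuromesodermal progenitors, the bipotent cells of the tail end, and Gdf11 promotes the passage from trunk to tail. In ES cells the clusters are held silent under Polycomb repression, and Smchd1 encodes a chromatin protein of the SMC family known for silencing on the inactive X chromosome and at clustered genes.

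In the deposited mm10 coordinates the cluster runs along the plus strand of chromosome 11 from the start of Hoxb13 at 96194316 to the end of Hoxb1 at 96368256, a span of 173.9 kb. Hoxb13 stands alone, with a gap of 74.0 kb before Hoxb9, and the other 9 genes lie within 96.8 kb. Hoxb9 occupies 96271457 to 96276595, Hoxb8 96281905 to 96285325, Hoxb7 96284257 to 96290336 and Hoxb6 96292476 to 96301569. Hoxb5 follows at 96302595 to 96306120, Hoxb4 at 96316684 to 96321638, Hoxb3 at 96323326 to 96346685, Hoxb2 at 96351632 to 96355689 and Hoxb1 at 96365752 to 96368256. The deposited spans of Hoxb8 and Hoxb7 overlap. The antisense gene Hoxb3os covers 37.9% of the exon bases of Hoxb3 and 40.0% of those of Hoxb2 in GENCODE M21, and Hoxb5 shares 3.59% with its own antisense gene. The sources do not say whether reads were counted by strand, so sense and antisense reads of Hoxb2 and Hoxb3 cannot be told apart.

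**Figure D1:**
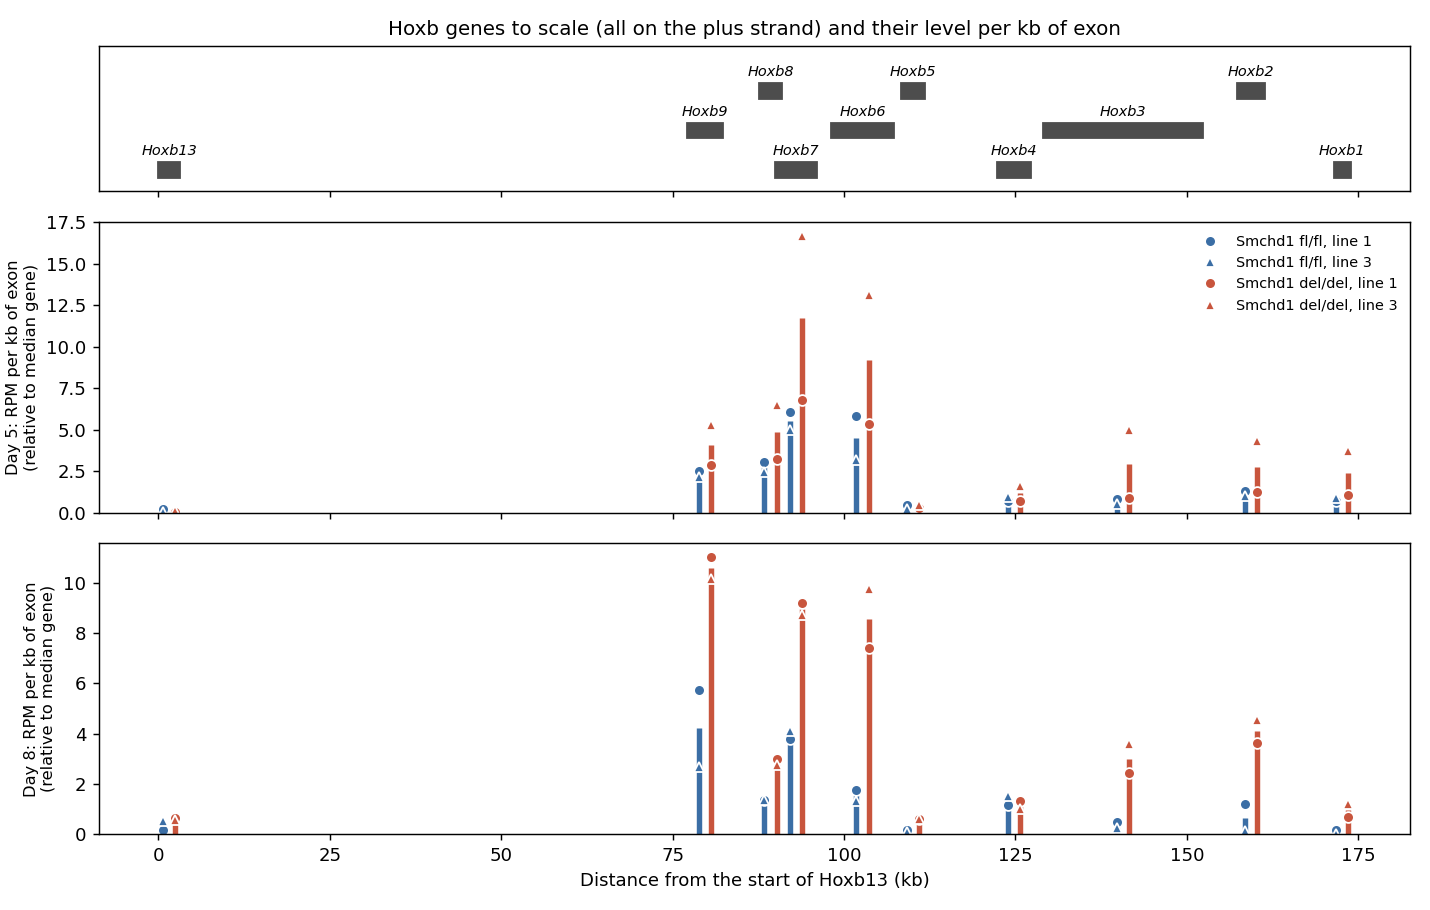
Top: position and span of the 10 Hoxb genes in kb from the start of Hoxb13. Middle and bottom: level per kb of exon (RPM, reads scaled to library size, rescaled to the median gene) at day 5 and day 8, where bars are means of 2 libraries, symbols are the libraries, and the 2 genotypes are drawn side by side at each gene. By group mean, Hoxb7 was the highest at day 5 and Hoxb9 at day 8, in both genotypes. In the fl/fl line 3 library of day 8, Hoxb7 (4.09) stood above Hoxb9 (2.68).

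The cluster also holds the microRNA genes Mir196a-1, between Hoxb13 and Hoxb9, and Mir10a, within the deposited span of Hoxb4. Their mature microRNAs are shown because both can pair with transcripts of the cluster, with the seed (bases 2 to 8) in capitals, from RefSeq on GRCm38.p6. The first lies at chr11:96265187-96265208 and the other at chr11:96317186-96317208, both on the plus strand.
mmu-miR-196a-5p: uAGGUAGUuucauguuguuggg
mmu-miR-10a-5p: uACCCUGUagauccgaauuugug
The 3-prime UTR of Hoxb8 in GENCODE M21 holds, from UTR position 418, a window of 22 bases that pairs with mmu-miR-196a-5p at 21 bases by Watson-Crick pairs, in capitals below, and at 1 by a G:U pair.
Hoxb8 site: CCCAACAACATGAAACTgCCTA
Only 2 of 20831 genes with a 3-prime UTR of that length or more have a window with as many pairs, Hoxb8 included, and the median over genes of the best window is 17. A perfect match to the seed of mmu-miR-196a-5p, ACTACCT on the transcript strand, was found in 3 of the 10 Hoxb genes and in 6.16% of all genes, and is in capitals in the sites printed here.
Hoxb7 site: ctgtaaaaaaatatACTACCTa
Hoxb6 site: tggaaggagcacatACTACCTa
Hoxb1 site: tctttgtatctgcaACTACCTc
A seed match of mmu-miR-10a-5p, ACAGGGT, was found in Hoxb3 and in 12.6% of genes. These are letter matches and not measured sites, and the libraries of total RNA were not made to measure mature microRNAs.

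Promoter sequence from RefSeq (GRCm38.p6) was matched for 3 of the 10 genes, and 2 are printed, 1 from the trunk end of the run and 1 from the hindbrain end, to show the windows next to which the levels below were measured. The windows end at the base before the gene start and read 5-prime to 3-prime on the plus strand, Hoxb8 at chr11:96281655-96281904 and Hoxb1 at chr11:96365508-96365751. Capitals mark matches, on either strand, to TATAAA (the core of a TATA box), TTTATG (bound by Cdx factors), CTTTGA (Tcf/Lef factors), AGGTCA (a half-site of retinoic acid receptors) and TGATTG (the core bound by Hox with Pbx).
Hoxb8 upstream: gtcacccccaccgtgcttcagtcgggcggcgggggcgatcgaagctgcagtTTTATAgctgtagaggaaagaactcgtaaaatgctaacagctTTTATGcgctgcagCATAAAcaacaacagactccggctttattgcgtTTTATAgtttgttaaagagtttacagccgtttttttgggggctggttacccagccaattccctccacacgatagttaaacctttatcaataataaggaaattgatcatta
Hoxb1 upstream: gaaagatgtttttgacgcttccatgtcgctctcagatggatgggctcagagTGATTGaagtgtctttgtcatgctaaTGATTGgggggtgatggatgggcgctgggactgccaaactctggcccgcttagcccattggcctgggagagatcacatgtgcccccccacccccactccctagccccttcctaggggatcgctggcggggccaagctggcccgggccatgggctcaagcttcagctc
The Hoxb8 window holds 2 matches to TATAAA and 2 to TTTATG, which 12.4% and 10.8% of 32851 windows hold at least once. The Hoxb1 window holds 2 matches to TGATTG, present in 12.7% of windows. CTTTGA and AGGTCA, present in 13.8% and 14.0% of windows, were not found in these 2 windows. The third matched window, of Hoxb4, held 1 match to AGGTCA and none to the other motifs. A match is a description of the letters and was not tested against the expression values.

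Reads in genes ranged from 1.51 to 8.67 M per library, 10.1 to 27.8% of the reads in the authors' denominator. The shallowest library was the fl/fl line 3 library of day 8, whose column name carries the word merge, and 1 read there weighs more than in any other. Smchd1 itself was lower in del/del than in fl/fl libraries at every day, by 2.84 (SE 0.24), 2.07 and 2.43 on the log2 scale at days 1, 5 and 8 (adjusted p = 0.00187, 0.0430 and 0.00229, limma), and its levels in the 2 genotypes did not overlap at any day. Levels below are relative RPM, that is reads scaled to library size (RPM) after each library was rescaled so that its median gene sits at the level of the others, and differences are log2 differences on that scale, since on the deposited scale the median gene itself differed between genotypes by 0.15, -0.40 and 0.90 at days 1, 5 and 8. All 10 Hoxb genes were among the 14063 genes tested (deposited log2 above 0 in at least 2 libraries). Hoxb13 and Hoxb5 met that rule through the del/del libraries of day 8 alone, and so had to be high in them.

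Before differentiation the cluster was close to silent in both genotypes. All 10 genes together had 33 and 24 reads in the fl/fl libraries and 26 and 33 in the del/del libraries of day 1, which is 0.66 to 1.02 relative RPM for the cluster as a whole. Hoxb6, a trunk gene of the middle of the cluster, had 0 reads in both fl/fl libraries, and Hoxb4 had 0 in both del/del libraries. Hoxb2, a hindbrain gene, had 0 and 0 reads in fl/fl and 8 and 8 in del/del libraries. Set against a floor of 3 reads over the group, that is at least 4.32-fold higher, but the fitted difference of 2.85 (SE 0.89) did not pass the test (adjusted p = 1.00, limma with Benjamini-Hochberg adjustment over all 14063 genes). No Hoxb gene was called between genotypes at day 1 (0 of 10, where 0.00711% of all genes tested were called in either direction, while 170 had an unadjusted p under 0.05).

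By day 5 the run from Hoxb9 to Hoxb1 had come on in both genotypes. In fl/fl cells 9 of 10 genes rose from day 1 to day 5, against a background of 23% of all genes called higher, and in del/del cells 9 of 10 rose against 21.2%. The 10th, Hoxb13, the most 5-prime gene, which acts in the tail and in later organs, differed by 1.37 (SE 0.94, adjusted p = 0.270) in fl/fl and 1.72 (adjusted p = 0.170) in del/del cells. The fitted median over the 10 genes was 5.21 in fl/fl and 6.65 in del/del cells on the log2 scale, and with genes at 0 reads on day 1 placed at their bound it was 5.21 and 6.40. The 9 genes passed in both genotypes under every alternative that tested them, except that Hoxb3 in fl/fl cells did not pass under limma-voom (adjusted p = 0.0611).

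**Figure D2:**
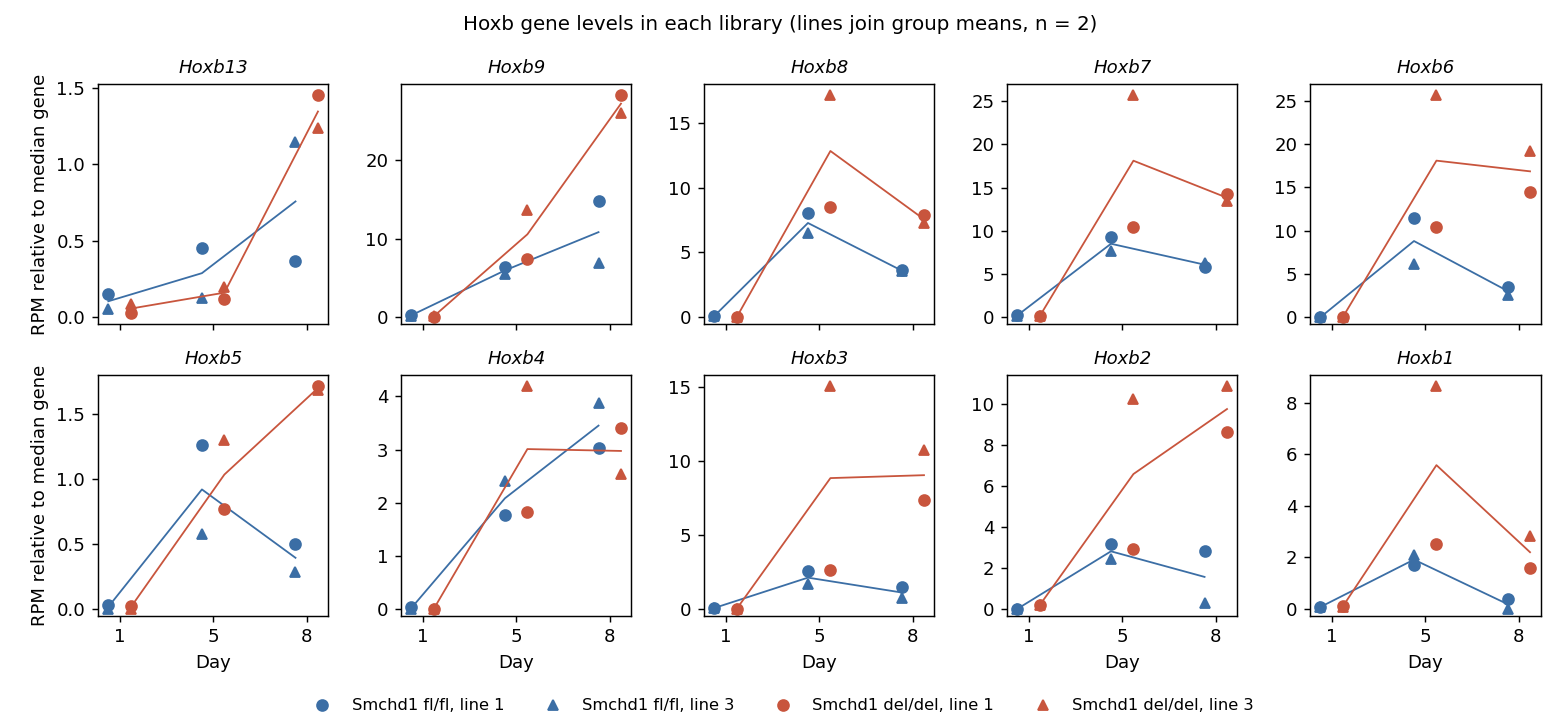
Level of each Hoxb gene in each of the 12 libraries (vertical axis, RPM rescaled to the median gene, a separate linear scale for each gene) at day 1, 5 and 8 (horizontal axis, not to scale). Colours are genotypes, circles line 1, triangles line 3, and lines join group means. For 9 of the 10 genes the line 3 triangle of del/del cells at day 5 stands above the other 3 libraries of that day.

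Hoxb7, a trunk gene that lies beside Hoxb8, had 9.34 and 7.66 relative RPM in the fl/fl libraries of day 5 and 10.5 and 25.7 in the del/del libraries, from 0.247 and 0.192 and from 0.101 and 0.198 at day 1. Every day 5 library stood above every day 1 library. The rise was 5.28 (SE 0.44, adjusted p = 1.13e-05) in fl/fl and 6.86 (adjusted p = 2.72e-06) in del/del cells. Hoxb6 went from 0 reads in the fl/fl libraries of day 1 to 253 and 247 reads at day 5, at least 185-fold. In del/del cells it went from 2 and 0 reads to 258 and 515, a ratio of 736 with a 95% counting interval of 203 to 6085. Such ratios are of reads summed over a group and divided by its rescaled library sizes. Hoxb8, known for holding blood progenitors in an immature state, went from 3 and 4 reads to 178 and 260 in fl/fl and from 2 and 0 to 209 and 344 in del/del libraries. None of the day 1 values of these 3 genes overlapped those of day 5, as was so for 9 of the 10 genes in fl/fl cells (background 38.2% of genes higher without overlap) and for 10 of 10 in del/del cells (background 36.6%).

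At the 3-prime end the same step was seen. Hoxb1, which patterns the fourth rhombomere of the hindbrain and is the first gene of the cluster to come on in the embryo, had 1.71 and 2.10 relative RPM in fl/fl and 2.52 and 8.63 in del/del libraries of day 5. It rose by 4.74 (SE 0.73, adjusted p = 0.000521) in fl/fl and by 5.67 (adjusted p = 0.000168) in del/del cells. Hoxb2 rose from 0 reads to 70 and 98 in fl/fl cells, at least 62.1-fold. Hoxb4, which can expand blood stem cells, had 1 and 0 reads at day 1 and 39 and 96 at day 5 in fl/fl cells, a ratio of 150 with a counting interval of 26.4 to 5960. In del/del cells it rose from 0 to 45 and 84 reads, at least 81.8-fold. Such intervals and floors cover counting error only.

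**Figure D3:**
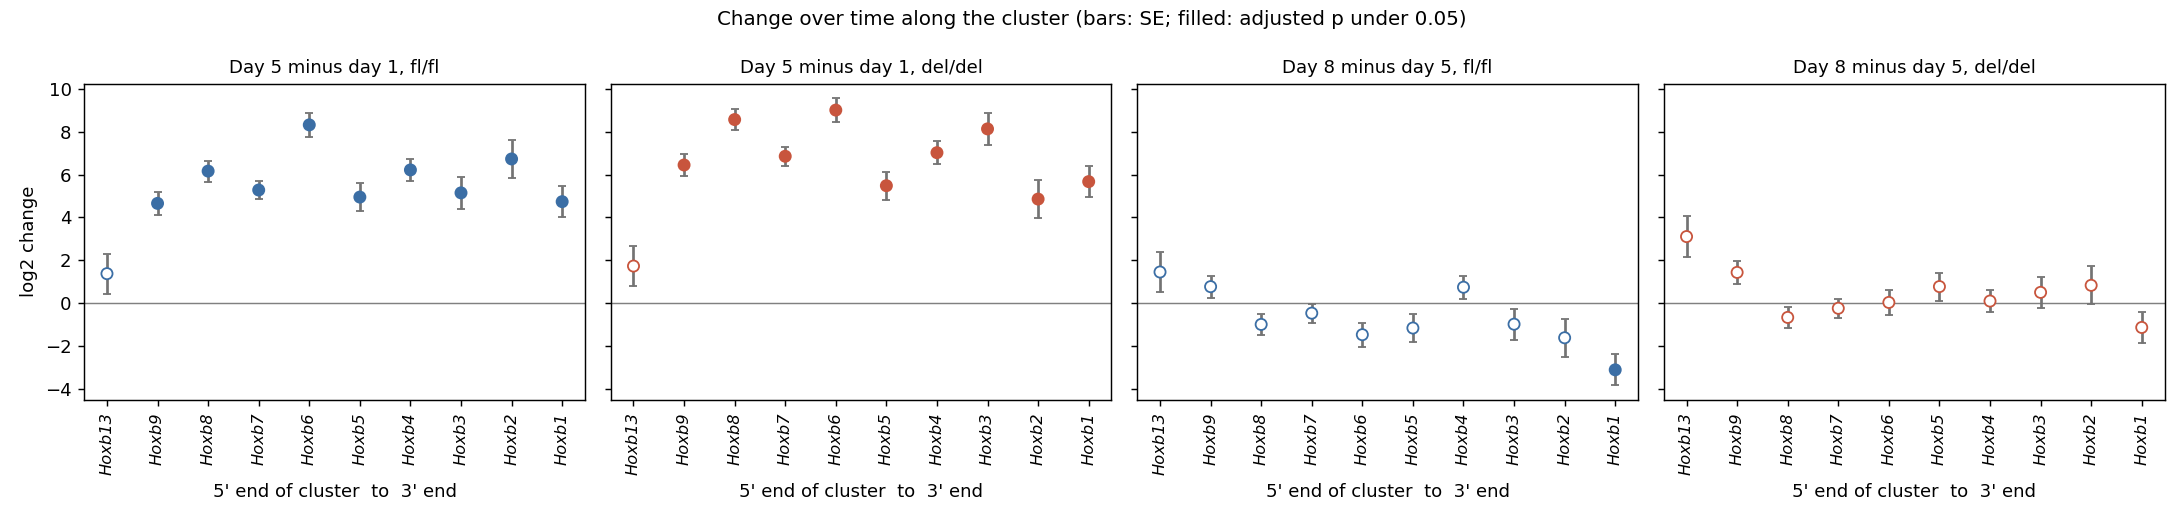
Log2 change of each Hoxb gene, in order along the cluster, from day 1 to day 5 and from day 5 to day 8 in each genotype (vertical axis, relative to the median gene, bars are SE, filled points have an adjusted p under 0.05). In the first step 9 of 10 points are filled in each genotype, and in the second step only Hoxb1 in fl/fl cells; the day 5 to day 8 changes of Hoxb7 and Hoxb8 in del/del cells turn positive on the deposited scale.

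Per kb of exon, the genes ranked in blocks at day 5. In fl/fl cells the mean level was 5.51 ± 0.77 relative RPM per kb for Hoxb7 (SD, n = 2) and 4.48 ± 1.88 for Hoxb6, and the libraries of these 2 overlapped. Hoxb8 at 2.76 and Hoxb9 at 2.32 came next and overlapped each other, but both their libraries lay below those of Hoxb6. Hoxb2 at 1.18 followed without overlap, then Hoxb1 at 0.822, Hoxb4 at 0.811 and Hoxb3 at 0.703, which overlapped in turn. Hoxb5 at 0.330 and Hoxb13 at 0.131 closed the order, each below the gene before it. The order in del/del cells also began with Hoxb7, Hoxb6, Hoxb8 and Hoxb9 and ended with Hoxb5 and Hoxb13, and only Hoxb4 with Hoxb5 and Hoxb5 with Hoxb13 did not overlap there.

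Between genotypes at day 5, no Hoxb gene passed the test (0 of 10, where 0% of genes were called higher and 0.00711% in either direction, and 1088 genes had an unadjusted p under 0.05). The fitted differences were positive for 9 of 10 genes, with a median of 0.86 against -0.02 over all genes tested, and ran from -0.61 for Hoxb13 to 1.61 for Hoxb3. 1 library stood apart. Summed over the 10 genes, the del/del library of line 3 held 121.9 relative RPM, whereas the del/del library of line 1 held 47.7 and the fl/fl libraries 46.1 and 35.2. Within line 1 the difference had a median of 0.05 and was positive for 6 of 10 genes, and within line 3 it had a median of 1.57 and was positive for all 10.

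**Figure D4:**
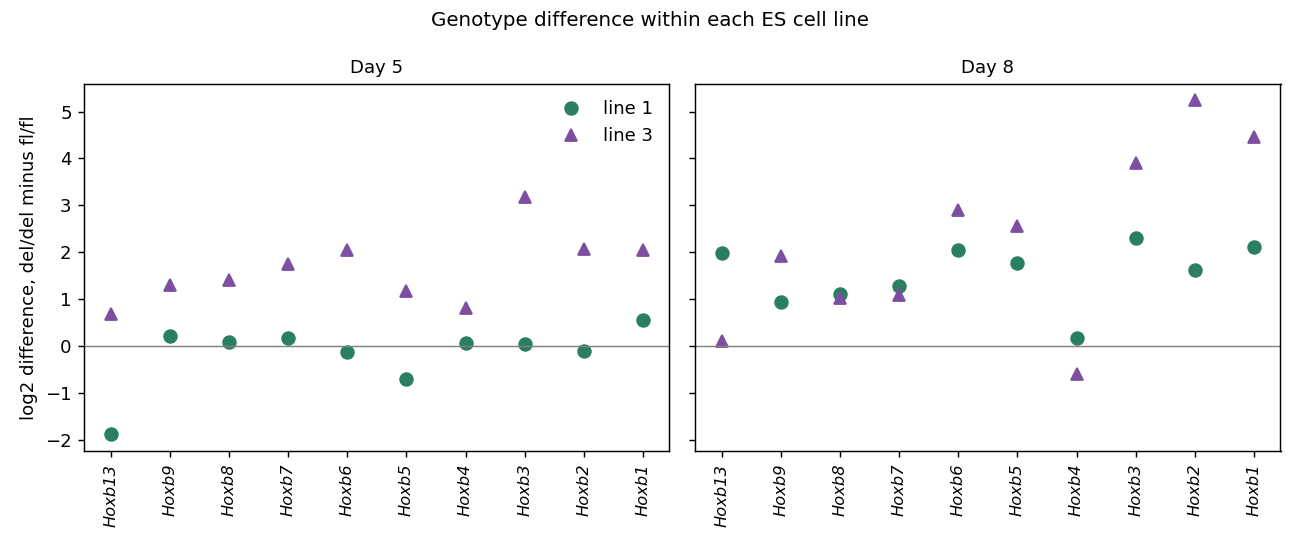
Log2 difference between the del/del and the fl/fl library of the same ES cell line (vertical axis, relative to the median gene) for each Hoxb gene in cluster order, at day 5 and day 8. Day 5 values of line 1 lie near 0 for most genes and those of line 3 are all above 0, whereas at day 8 both lines are above 0 for each gene but Hoxb4 in line 3, and on the deposited scale the mean difference of Hoxb4 is above 0 too.

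Hoxb3, active in the hindbrain and the upper spinal cord, shows it most. It had 2.57 and 1.65 relative RPM in fl/fl cells and 2.64 in del/del line 1, but 15.1 in del/del line 3. Hoxb2 had 3.16 and 2.45 in fl/fl, 2.92 in del/del line 1 and 10.2 in del/del line 3. Other things moved with that library. Paraxial mesoderm markers (6 genes, of the tissue that forms the somites) summed to 41.5 relative RPM in it and to 8.32 to 18.9 in the other 3 libraries of day 5, and naive ES markers to 64.8 against 96.4 to 100.5. Their part in the Hoxb levels was not tested. Without that library the median difference at day 5 was 0.27. Without the del/del line 1 library it was 1.43.

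At day 8, 5 of the 10 Hoxb genes were higher in del/del than in fl/fl cells (Hoxb6, Hoxb5, Hoxb3, Hoxb2 and Hoxb1), against a background of 7.95% of genes called higher, and none was lower (background 7.05%). Hoxb5 counts among them although it entered the test through the del/del libraries of day 8 alone, and without it 4 of the 9 other genes were called. They lie from the middle of the cluster to its 3-prime end, with Hoxb4 among them as an exception. The median difference over the 10 genes was 1.80, against 0.02 over all genes tested. Both del/del libraries stood above both fl/fl libraries for 9 of 10 genes, where this was so for 32.1% of all genes. Hoxb13 and Hoxb5 are among these 9 and enter the median. Their entry into the test favoured high del/del values at day 8, so they add no separate evidence. The whole cluster summed to 36.4 and 25.7 relative RPM in fl/fl and to 89.1 and 95.9 in del/del libraries.

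**Figure D5:**
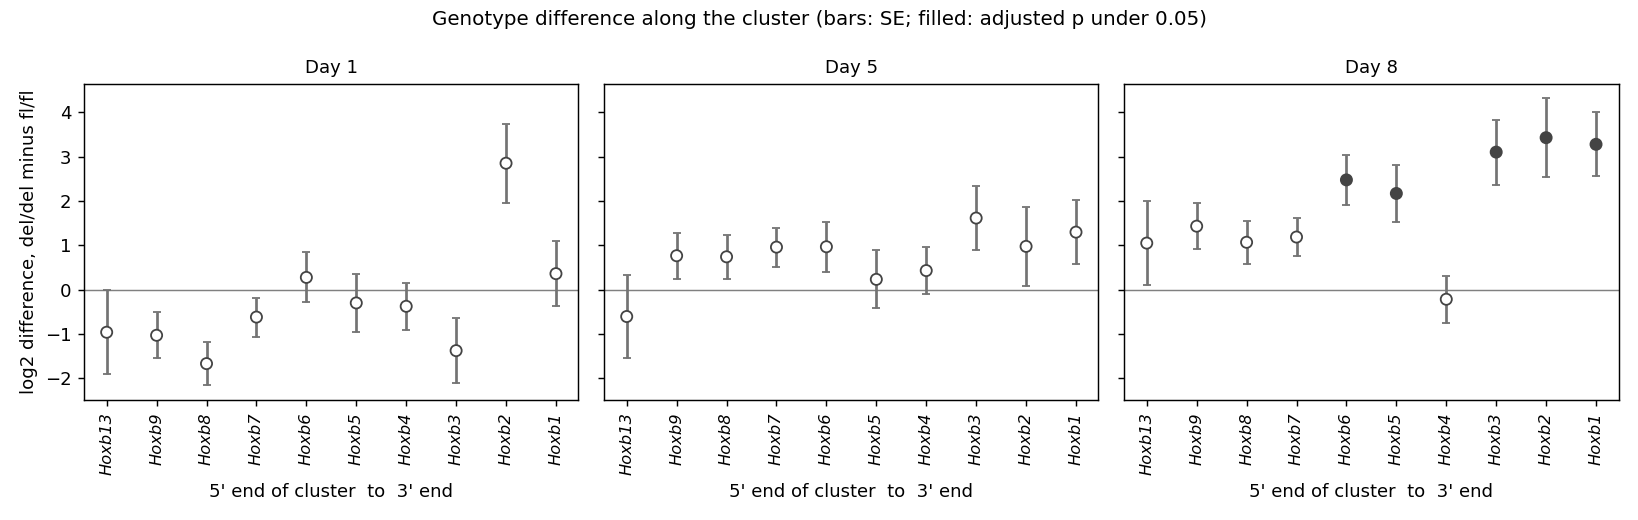
Log2 difference of del/del minus fl/fl for each Hoxb gene in cluster order at day 1, 5 and 8 (vertical axis, relative to the median gene). Bars are SE of the fit, and filled points have an adjusted p under 0.05. The SE pools the spread within groups over all 12 libraries, so a gene has the same SE at each day. Filled points occur at day 8 only, for 5 of 10 genes; Hoxb4 at day 8 and Hoxb5 at day 5 change sign on the deposited scale.

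Hoxb1 had 0.366 and 0 relative RPM in the fl/fl libraries of day 8 (11 and 0 reads) and 1.57 and 2.82 in the del/del libraries. All del/del values were higher. The difference was 3.28 (SE 0.73, adjusted p = 0.02, limma), with the library at 0 entered by the authors as 0.9 reads. The ratio of summed reads, scaled to library size, was 7.32 with a counting interval of 3.99 to 14.9. Hoxb2 had 2.83 and 0.287 relative RPM (85 and 2 reads) in fl/fl and 8.64 and 10.9 in del/del libraries. On the log2 scale the fl/fl libraries thus differed from each other by more than the nearer of them did from del/del. The difference was 3.43 (SE 0.89, adjusted p = 0.0314), and it was 1.78 without the shallow fl/fl library. Hoxb3 had 1.5 and 0.718 in fl/fl and 7.35 and 10.8 in del/del libraries, a difference of 3.10 (SE 0.73, adjusted p = 0.0235). The groups did not overlap and rest on 45 and 5 against 313 and 427 reads in libraries of unequal depth. Scaled to library size, the ratio of summed reads was 6.66 (counting interval 5.00 to 9.05).

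In the middle of the cluster the genes behaved unequally. Hoxb6 had 3.49 and 2.58 relative RPM in fl/fl and 14.5 and 19.2 in del/del libraries of day 8. Its lowest del/del library was above its highest fl/fl library, with a difference of 2.47 (SE 0.57, adjusted p = 0.0215). Hoxb5, a trunk gene that also acts in lung and gut mesoderm, was low throughout, with 0.499 and 0.287 in fl/fl and 1.71 and 1.69 in del/del libraries, and differed by 2.17 (SE 0.65, adjusted p = 0.0478). Since Hoxb5 entered the test only through those del/del libraries, this value is a description; with no filter its adjusted p was 0.0626, and with a pseudocount of 2 reads 0.0684. Between these and Hoxb3, Hoxb4 had 3.03 and 3.87 relative RPM in fl/fl and 3.40 and 2.54 in del/del libraries. The groups overlapped, and the difference was -0.22 (SE 0.53, adjusted p = 0.791), or 0.66 on the deposited scale, without passing the test on either. Its ratio of summed reads, scaled to library size, was 0.938 with a counting interval of 0.75 to 1.18.

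The genes of the trunk end had higher values in both del/del libraries but did not pass the test. Hoxb7 had 5.86 and 6.31 relative RPM in fl/fl and 14.2 and 13.4 in del/del libraries, with a difference of 1.18 (SE 0.44, adjusted p = 0.0866). Hoxb8 had 3.63 and 3.59 against 7.87 and 7.25, with a difference of 1.07 (SE 0.49, adjusted p = 0.149). For both genes the libraries of a genotype lay close together and the genotypes lay apart. Hoxb9, expressed from the thoracic level backwards, had 14.8 and 6.89 in fl/fl and 28.4 and 26.1 in del/del libraries, and its difference was 1.43 (SE 0.52, adjusted p = 0.0829). Hoxb13 had 0.366 and 1.15 (11 and 8 reads) against 1.46 and 1.23 (62 and 49 reads), a difference of 1.05 (SE 0.94, adjusted p = 0.443). Its del/del libraries lay above both fl/fl libraries, the lower of them by little. On the deposited scale 8 of 10 genes were called, Hoxb7, Hoxb8 and Hoxb9 in addition, where 22.9% of all genes were called higher and 0.484% lower.

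Across the 10 genes the difference at day 8 was larger towards the 3-prime end, with a rank correlation of 0.68 between order from Hoxb13 and size of the difference over 10 genes, which share the same 4 libraries, and of 0.67 over 9 genes without Hoxb13. Without the shallow fl/fl library of line 3 it was 0.42 over 10 genes and 0.62 over 9, and within line 1 alone 0.38 and 0.57, as computed after the data had been seen. The order thus rests in part on 1 library. The difference itself was seen in both lines. Within line 1 the difference was positive for 10 of 10 genes with a median of 1.70. Within line 3, which holds the shallow library, it was positive for 9 of 10 with a median of 2.24. Both counts include Hoxb13 and Hoxb5, whose entry into the test favoured high del/del values at day 8. Hoxb5 also stays in the rank correlation over 9 genes. In line 1, with at least 5.97 M reads in each library, Hoxb3 differed by 2.30, Hoxb1 by 2.10, Hoxb6 by 2.05, Hoxb13 by 1.99, Hoxb5 by 1.78 and Hoxb2 by 1.61. Hoxb7 followed at 1.28, Hoxb8 at 1.12 and Hoxb9 at 0.94, and Hoxb4 at 0.17 was the lowest.

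The number of calls at day 8 moved with the libraries in the fit, and so did the share of all genes called. Without the shallow fl/fl library of line 3 the median difference was 1.77 in place of 1.80. Leaving out the del/del library of line 3 gave a median of 1.83, and leaving out that of line 1 gave 1.76. Fewer Hoxb genes, and a smaller share of all genes, were called in each of these fits. Leaving out the fl/fl library of line 1 gave differences from -0.40 for Hoxb4 to 5.08 for Hoxb2, with more calls among Hoxb genes and among all genes. Leaving out a library of day 1 or day 5 changed no difference at day 8, only the variance and with it the calls. With libraries of day 8 alone in the fit 0 Hoxb genes were called, where 0% of all genes were called higher. Under limma-voom 2 were called (Hoxb6 and Hoxb9, background 6.59%), and with library weights 1 (Hoxb2, background 2.4%). The line as a block ended the call of Hoxb5 (adjusted p = 0.0582) and kept the other 4.

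From day 5 to day 8, after Gdf11, levels within the cluster shifted unequally. In fl/fl cells Hoxb1 fell by 3.13 (SE 0.73, adjusted p = 0.0318), from 1.71 and 2.10 to 0.366 and 0 relative RPM, and it alone of 10 genes was called lower, against a background of 3.58%. That call was lost without the shallow library. None of the 10 was called higher (background 3.15%). Hoxb8, Hoxb7, Hoxb6, Hoxb5 and Hoxb3 had fl/fl libraries that were lower at day 8 than at day 5 without overlap, as did Hoxb1, 6 of 10 genes where the background was 25.6%. Hoxb9 and Hoxb4 lay above without overlap, with fitted changes of 0.76 and 0.74, where the background was 24.3%.

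In del/del cells no gene passed between day 5 and day 8 (0 of 10, background 7.24% called higher and 4.67% lower, and 3979 genes of all tested had an unadjusted p under 0.05). Hoxb13, which entered the test only because its del/del libraries of day 8 were high, is given as a description. It had 0.122 and 0.200 relative RPM (3 and 4 reads) at day 5 and 1.46 and 1.23 (62 and 49 reads) at day 8, without overlap, as 3 of the 10 genes were (background 28.6% higher without overlap), and its fitted difference was 3.10. The ratio of summed reads of Hoxb13, scaled to library size, was 8.61 with a counting interval of 4.04 to 21.9. Hoxb5, which entered the test in the same way, was another of the 3 genes. Hoxb9 went from 7.47 and 13.7 to 28.4 and 26.1 relative RPM, a difference of 1.43 (SE 0.52, adjusted p = 0.1). At the other end Hoxb1 went from 2.52 and 8.63 to 1.57 and 2.82, a difference of -1.15 (adjusted p = 0.328) in overlapping groups. Without the del/del line 3 library of day 5, which stood high, the median change over the 10 genes was 0.91 in place of 0.29.

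Whether the step from day 5 to day 8 differed between genotypes was tested directly. The difference of the changes was positive for 9 of 10 genes with a median of 1.5, from -0.65 for Hoxb4 to 2.45 for Hoxb2, and none of the 10 passed (adjusted p from 0.376 to 0.887, background 0.00711% of genes called, 1925 with an unadjusted p under 0.05). Hoxb13 and Hoxb5 are among the 9, and their entry into the test favoured high del/del values at day 8. The corresponding test from day 1 to day 5 also called 0 of 10 genes (background 0%, 358 genes with an unadjusted p under 0.05). A genotype difference called at day 8 and not at day 5 is therefore not shown to have grown.

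The shares of the cluster's reads taken by single genes also shifted, for Hoxb9, Hoxb8, Hoxb1 and Hoxb13 in both genotypes. Shares of other genes shifted in either genotype or in both. Hoxb9 took 11.2 to 15.7% of Hoxb reads in the 4 libraries of day 5 and 26.8 to 40.7% in the 4 of day 8. Hoxb8 took 14.1 to 18.5% at day 5 and 7.57 to 14.0% at day 8. Hoxb1 took 3.72 to 7.08% at day 5 and 0 to 2.94% at day 8. Hoxb13, with few reads, took 0.164 to 0.978% at day 5 and 1.01 to 4.47% at day 8. Hoxb4 took 3.82 and 6.83% at day 5 and 8.33 and 15.1% at day 8 in fl/fl libraries, but 3.83 and 3.44% and then 3.82 and 2.65% in del/del libraries. Hoxb6 went from 24.8 and 17.6% to 9.61 and 10.1% in fl/fl and from 22 and 21.1% to 16.3 and 20.0% in del/del libraries. Whether these shares moved differently in the 2 genotypes was not tested. Per kb of exon, Hoxb9 therefore led at day 8, with 4.21 ± 2.18 relative RPM per kb (SD, n = 2) in fl/fl and 10.6 ± 0.62 in del/del cells. Hoxb7 followed with 3.94 and 8.96, overlapping Hoxb9 in fl/fl libraries and not in del/del libraries. In del/del cells Hoxb6 at 8.58 overlapped Hoxb7, and Hoxb2 at 4.09, Hoxb3 at 3.01 and Hoxb8 at 2.87 came next, the last 2 overlapping. Hoxb4 at 1.16 and Hoxb1 at 0.946 overlapped as well, and Hoxb5 at 0.611 and Hoxb13 at 0.610 were last. In fl/fl cells Hoxb1 was last at 0.0788, and all neighbours in the order overlapped except Hoxb7 with Hoxb6.

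Of the 7 other genes of the table inside the cluster, 3 were tested, and all of them moved with the coding genes. The antisense gene Hoxb3os had 128 and 6 reads in fl/fl and 649 and 852 in del/del libraries of day 8, without overlap, and was higher in del/del cells by 3.24 (SE 0.81, adjusted p = 0.0281). The antisense gene 0610040B09Rik, also named Hoxb5os, had 133 and 20 against 812 and 1035 reads and was higher by 2.65 (SE 0.67, adjusted p = 0.0283). Gm53, between Hoxb13 and Hoxb9, had 152 and 30 against 524 and 617 reads and was higher by 1.57 (SE 0.39, adjusted p = 0.0266). At day 1 Hoxb3os had 1 and 2 reads in fl/fl and 8 and 15 in del/del libraries, the side on which Hoxb2 also lay. Hoxb3os shares 27.1% of its exon bases with Hoxb3 and 22.7% with Hoxb2, so their reads cannot be fully told apart. Mir196a-1, the host of the first microRNA printed above, had 11 and 0 against 22 and 33 reads at day 8. That is 0.366 and 0 against 0.517 and 0.831 relative RPM, the 0 being in the shallow library. Mir10a had 0 reads in every library. Gm11536 had 4 and 1 reads against 24 and 42, or 0.133 and 0.144 against 0.563 and 1.06 relative RPM. Gm11538 had 4 and 0 against 13 and 19 reads, or 0.133 and 0 against 0.305 and 0.479 relative RPM.

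Genes beside the cluster had lower median changes than the cluster. Of 28 genes within 500 kb on either side, 17 were tested. At day 8 none of them was called higher in del/del cells (background 7.95%) and 2 were lower (background 7.05%), B4galnt2 by 3.20 and Nfe2l1 by 0.55. For so few genes these counts lie near the background. Their median difference was -0.20. The difference was positive for 8 of the 17, up to 1.57 for Calcoco2, which was not called. From day 1 to day 5, 0 of the 17 rose (background 23% in fl/fl and 21.2% in del/del cells) and 6 fell in each genotype. Their medians were -0.58 in fl/fl and -0.53 in del/del cells.

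The other Hox clusters came on in the same interval. From day 1 to day 5 in fl/fl cells 9 of 10 tested Hoxa, 8 of 9 Hoxc and 7 of 9 Hoxd genes rose (background 23%). Their counts in del/del cells were 10, 7 and 8 (background 21.2%). At day 8, 2 of 10 Hoxa genes (Hoxa6 and Hoxa11), 5 of 9 Hoxc genes and 5 of 9 Hoxd genes were higher in del/del than in fl/fl cells and none lower. The background was 7.95% of all genes higher and 7.05% lower. The median differences of the Hoxa, Hoxc and Hoxd genes were 1.96, 2.95 and 2.69. In the del/del line 3 library of day 5 the Hoxa genes summed to 85.1 relative RPM against 20.3 to 26.7 in the other 3 libraries of that day, and the Hoxd genes to 85.0 against 16.9 to 25.8. That library thus stood high for these clusters too.

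Hox proteins bind DNA with partners of the Pbx, Meis and Pknox families. Of 9 such genes tested at day 8, 2 were higher in del/del cells and 1 was lower. The background for this list and those below was 7.95% of all genes higher and 7.05% lower. Counts in lists this short can lie near it. Meis2 was higher by 1.30 (SE 0.27, adjusted p = 0.0179), and Pbx4 was lower by 1.74 (SE 0.39, adjusted p = 0.0204). The median was 0.73. Among 16 tested genes that act on the Hoxb cluster from above, 5 were higher and 1 lower. The retinoic acid receptor genes Rarg and Rarb were higher by 1.75 (adjusted p = 0.00498) and 2.71 (adjusted p = 0.0265), and Lin28b, an inhibitor of let-7 processing, by 2.72 (adjusted p = 0.0287). Nr6a1, which promotes trunk development, was lower by 0.82 (adjusted p = 0.0241), and Gdf11, named after its value was seen, was higher as well (adjusted p = 0.0351, 2.14-fold). Of 12 Polycomb and related genes 2 were higher (Ezh2 by 0.83 and Cbx2 by 0.79) and 1 lower (Cbx7 by 1.28), with a median of 0.03. These lists were chosen with results of the series known.

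Markers of cell types differed between the libraries that the Hoxb comparison sets side by side. As background for the calls below, 23% of all genes rose from day 1 to day 5 in fl/fl and 21.2% in del/del cells. At day 8, 7.95% of all genes were called higher and 7.05% lower in del/del cells. Of the markers of neuromesodermal progenitors and the primitive streak, 6 of 7 tested genes rose from day 1 to day 5 in both genotypes and 1 fell, Sox2, which neural and pluripotent cells also express, by 1.57 in fl/fl and 1.61 in del/del cells. Brachyury (T) went from 0.0548 to 0.176 relative RPM over the 4 libraries of day 1 to 18.6 to 30.3 over those of day 5. At day 8 the 6 trophoblast markers summed to 172 and 433 relative RPM in fl/fl and 82.3 and 52.7 in del/del libraries, and all 5 tested were lower in del/del cells; Elf5 had 0 reads in both del/del libraries. The 6 fibroblast markers summed to 134 and 28.6 in fl/fl and 293 and 383 in del/del libraries, with 2 of 6 called higher and none of the 6 at 0 there in del/del cells. Thy1 was at 3.19 and 0.287 relative RPM in fl/fl and 21.7 and 27.0 in del/del libraries. Naive ES markers summed to 78.8 and 84.4 against 48.7 and 38.5. Tissues of the embryo that express Hox genes also differed. Paraxial mesoderm markers summed to 9.42 and 5.88 in fl/fl and 16.8 and 24.1 in del/del libraries, with 3 of 6 called higher and none lower. Neural progenitor markers summed to 76.0 and 72.0 against 121.1 and 133.5, with 2 of 6 higher and 1 lower, and the 5 lateral mesoderm markers to 58.5 and 32.9 against 89.6 and 94.6, with 2 higher and 1 lower. Extraembryonic endoderm markers summed to 244 and 252 against 134 and 175, and endothelium and blood markers to 19.1 and 32.0 against 8.33 and 3.15, each with 1 of 4 tested genes lower and none higher. The part of these cell types in the Hoxb differences was not tested, and in bulk RNA fewer cells of a type and less RNA per cell cannot be told apart.

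The genes outside the Hox clusters whose profile was most like the mean profile of Hoxb1 to Hoxb9 over the 12 libraries, each gene centred on its own mean, were Gdf11 (Pearson r = 0.994), Notum (0.994), Zfp503 (0.993), Igfbp4 (0.992) and Laptm4b (0.991). Gdf11 encodes the ligand that was also added to the cultures, and Notum a secreted inhibitor of Wnt. Their points share libraries and depth, and the rise after day 1 carries most of such a correlation. Of the members, Hoxb13 was least like that profile (r = 0.689) and Hoxb6 most (r = 0.996).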

How the data were processed

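Total RNA of 12 libraries was sequenced. Per the submitters' processing notes the tools were bcl2fastq, TopHat2 2.0.12 and edgeR, with mm10; their roles and the counting of reads are not recorded. The authors deposited log2 RPM per gene. The deposited values were whole reads within 0.02 reads for 100% of entries, with 0 reads entered as 0.9 reads, so reads were recovered; the denominators were 14.9 to 34.0 M reads. Each library was rescaled to the median gene. limma 3.58.1 (R 4.3.3) fitted 6 group means with a trended variance to the 14063 genes with deposited log2 above 0 in at least 2 libraries, with Benjamini-Hochberg adjustment and a threshold of 0.05. limma-voom on the recovered reads was an alternative, and no other count model was run. Tables were made with Python 3.11.15, pandas 2.3.3 and scipy 1.17.1, and the scripts were tested on simulated data. Counting intervals are exact 95% intervals, and the floor for 0 reads is 3 reads over the group. Ratios of reads and their intervals are scaled to the rescaled library sizes. Exon lengths came from GENCODE M21.

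Replicate numbers pair the genotypes by design, since both come from the same line; deviations of same-line libraries correlated at 0.13, -0.15 and -0.11 at days 1, 5 and 8. Named genes were the 10 Hoxb genes, the other genes inside the cluster, tested genes within 500 kb, up to 4 genes of each list with the smallest p, and the 5 genes most like the mean Hoxb1 to Hoxb9 profile. Values of some listed genes are not reported here. Members and lists were chosen with earlier results of these data known.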

Additional observations from a re-analysis of the deposited data

How the results depend on the processing

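Of 1854 values of single Hoxb genes under 9 alternative settings and 12 fits that each left out 1 library, 1755 kept their direction and their side of the threshold, 50 lost a call, 21 gained one and 28 changed sign. The 9 rises from day 1 to day 5 were called in each genotype in all 12 leave-one-out fits. The count at day 8 between genotypes, 5 genes, was 8 on the deposited scale, 3 under the stricter filter (which left 6 of the 10 genes), 2 under limma-voom, 1 with library weights and 0 with only the groups compared, and 0 to 6 when a library was left out. The count at day 1 was 1 with library weights and 0 in each leave-one-out fit, and that at day 5 ranged from 0 to 2 on leaving out a library. The tests of the difference between genotypes ranged from 0 to 1 for day 5 minus day 1 and from 0 to 1 for day 8 minus day 5. From day 5 to day 8 in fl/fl cells the 1 call became 0 under the stricter filter, limma-voom, library weights and only the groups compared, and 0 to 2 on leaving out a library. In del/del cells the 0 calls became 2 on the deposited scale, 1 with a pseudocount of 2 reads, 2 under limma-voom and 1 with only the groups compared, and 0 to 1 on leaving out a library. With the line as a replicate block 4 genes were called at day 8 (Hoxb5 lost, adjusted p = 0.0582), and no other count moved by over 1.5 times. On the deposited scale the sign changed for Hoxb5 at day 5 (-0.14), Hoxb4 at day 8 (0.66), the genotype difference of the first step for Hoxb5 (-0.00095) and Hoxb13 (-0.18), that of the second step for Hoxb4 (0.61), and the second step in del/del cells for Hoxb7 (0.45) and Hoxb8 (0.025). Leaving out single libraries moved the day 1 difference of Hoxb1 from -0.11 to 0.83 and of Hoxb6 from -0.40 to 0.95, and the day 5 difference of Hoxb4 from -0.17 to 1.03, Hoxb5 from -0.34 to 0.80 and Hoxb13 from -1.53 to 0.32. The genotype difference of the first step ran from -0.035 to 1.098 for Hoxb5 and from -0.57 to 1.28 for Hoxb13, and that of the second from -0.42 to 0.88 for Hoxb7 and from -0.18 to 0.84 for Hoxb8. The second step ran from -3.28 to 0.022 for Hoxb2 in fl/fl cells, and in del/del cells from -0.079 to 1.73 for Hoxb2, -0.76 to 1.75 for Hoxb3, -0.51 to 0.69 for Hoxb4, -0.62 to 0.67 for Hoxb6 and -0.90 to 0.40 for Hoxb7. Over all genes at day 8, 1118 were called higher and 991 lower, 3227 and 68 on the deposited scale, 1352 and 721 with TMM scaling, 927 and 951 under limma-voom, 187 and 121 without the fl/fl line 3 library, and 0 and 0 with only the groups compared. The cause of these changes was not tested, except that fewer libraries or genes entered the fits that left some out. The other planned count tests were not run. The fl/fl line 3 library of day 8, with 1.51 M reads in genes, had 2 reads or fewer for Hoxb5, Hoxb2 and Hoxb1, so depth limits their differences.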
